A study of Mus musculus with 2 samples.

Results

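Immune nuclei of the fetal mouse testis were taken as the 60 nuclei, of 7492 kept, with the largest share of RNA molecules (UMIs, unique molecular identifiers) from 8 genes of immune cells. Nuclei were kept with 2000 to 50000 UMIs, under 10% of UMIs from mitochondrial genes and over 500 transposase cuts at peaks of open chromatin. The 8 genes were *Ptprc*, which encodes the pan-leukocyte phosphatase CD45, the mannose receptor gene *Mrc1*, the clotting factor gene *F13a1*, *Adgre1*, which encodes the macrophage antigen F4/80, the growth factor receptor gene *Csf1r*, the guanine exchange factor gene *Dock2*, the adaptor gene *Fyb* and *Ly86*, a partner of a Toll-like receptor. The other 7432 kept nuclei were the comparison throughout. Members were thus chosen by the RNA counts of these 8 genes, so every RNA difference below, in the same nuclei and the same contrast, is a description. The accessibility of the chromatin had no part in the choice apart from the minimum of 500 cuts.

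Macrophages enter the mouse gonad before birth, from precursors of the yolk sac and later from monocytes of the fetal liver. In the fetal testis they are known for engulfing dying and misplaced cells and for a part in shaping vessels and cords. Their growth and survival run through the receptor CSF1R and its ligands CSF1 and IL34, and their enhancers are opened by the factor PU.1, the product of *Spi1*, with RUNX, C/EBP and AP-1 factors beside it. Monocytes carry the chemokine receptor CCR2, whereas MRC1 is found on many macrophages that reside in tissue.

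Whole testes of E14.5 embryos, counted in embryonic days and labelled male, were frozen, and their nuclei went through 10x multiome, in which each nucleus yields both its RNA and its accessible DNA, the latter cut by a transposase (ATAC). Crossing a parent homozygous for *Nr5a1-cre* with one homozygous for *Rosa-tdTomato* gave the embryos, and cre expression follows *Nr5a1*, a gene of steroidogenic and supporting cells of the gonad and not of blood cells. No other genotype, treatment or stage was profiled in these libraries, and how many embryos were pooled is not stated in the labels or methods. With 1 library for each assay there was no replicate and no test between animals. Every interval below is an exact 95% interval that covers counting error only, and for cuts, 2 of which end each fragment, even counting error is understated.

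All 60 member barcodes held both RNA and fragments. The members held 456689 UMIs, with a median of 5826 per nucleus (2255 to 37946), against a median of 8269.5 in the other nuclei. Their median number of genes was 2611 against 3237, and mitochondrial genes took a median of 1.59% against 1.53% of UMIs. They held 252871 fragments, of which 32.5% lay at the deposited peaks against 37.4% in the others. Scrublet, which scores nuclei that look like mixtures, put 15 of the 60 (25%) over its own automatic threshold against 16.8% of the others. Within ranks 1 to 40 only those at 10, 32 and 38 were among the 15, and the rest lay in ranks 41 to 60.

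The 8 genes made up 2.05% of the UMIs of the first nucleus and 0.190% of those of the last, while the first nucleus outside stood at 0.175%. The member set thus ended inside a continuous decline and not at a gap. All 8 genes were found in 14 members, at least 6 of them in 44 and at least 2 in each of the 60. Summed over the set, the 8 genes held 6534 UMIs per 1000000 (CPM; 6302 to 6773) against 19.2 CPM in the other nuclei.

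**Figure D1:**
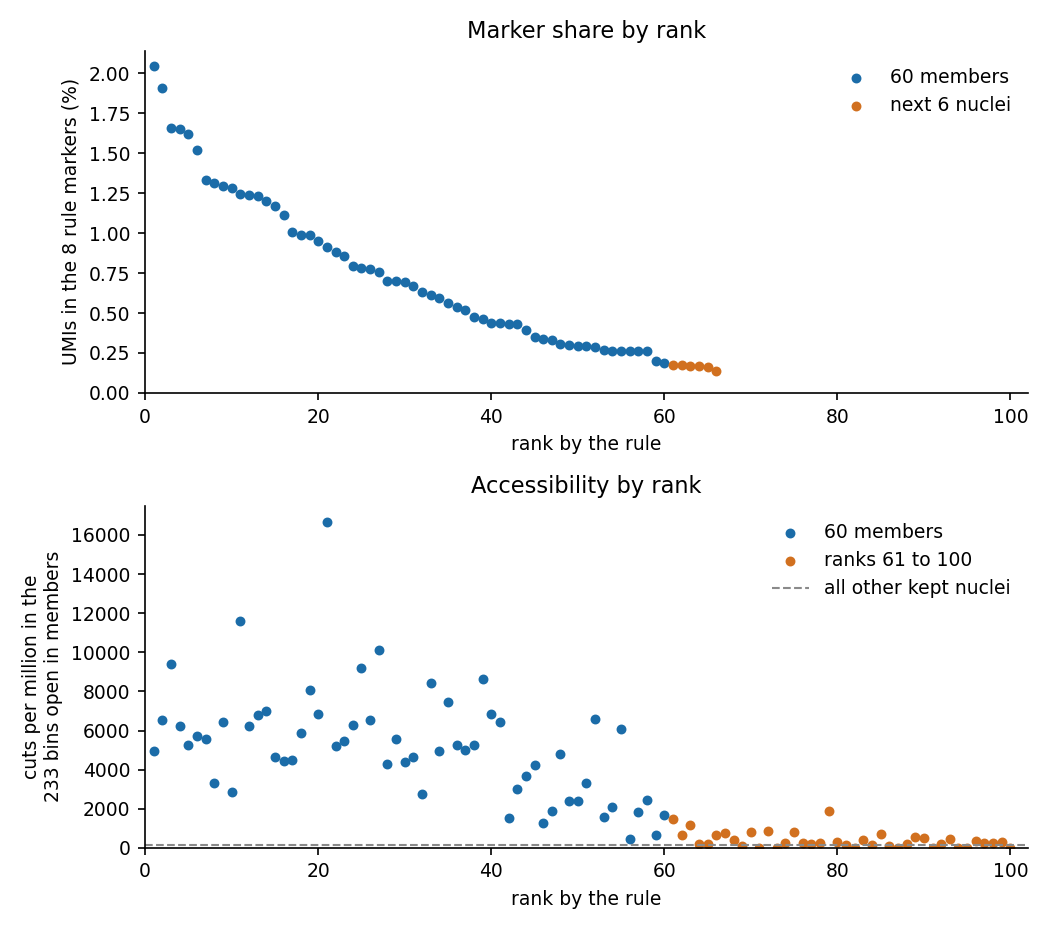
Upper panel, share of UMIs (%) in the 8 genes of the rule against rank, for the 60 members and the next 6 nuclei. Lower panel, ATAC cuts per 1000000 of each nucleus in the 233 bins open in members, for ranks 1 to 100, with the level of all other kept nuclei (168 cuts per 1000000) as a dashed line. Members between ranks 1 and 40 sit far above that line and those between 41 and 60 spread down toward it. Cuts of the members chose these bins, so members stand high in part by that choice.

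The genes were unevenly spread over the members, and none was found in every one. *Dock2* had at least 1 UMI in 57 members, *Ptprc* in 55, *Fyb* in 54, *Adgre1* in 47, *Csf1r* in 45, *Ly86* in 44, *Mrc1* in 38 and *F13a1* in 34. *Ptprc* ranged from 0 to 23 UMIs per nucleus with a median of 6, and *Mrc1* from 0 to 68 with a median of 4.5. *F13a1* ranged from 0 to 59 with a median of 1. Shares of nuclei with a UMI depend on depth and on free RNA, so nuclei were also thinned to 2000 UMIs and set beside 60 nuclei led by germ cell genes, which should lack these genes and had a median of 11734 UMIs. After thinning, *Ptprc* was found in 47 members and 0 germ nuclei, *Mrc1* in 36 and 1, *Dock2* in 49 and 3, and *Fyb* in 48 and 1. *Adgre1* (33), *Ly86* (35), *F13a1* (28) and *Csf1r* (22) had 0 germ nuclei with a UMI, and 0 of 60 nuclei allows a share of nuclei with a UMI of up to 5% (3 counts), which does not limit the share that express the gene.

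When each gene was left out of the rank in turn, 57 to 60 of the 60 members stayed the same. The gene left out was then 137 times (119 to 157, *Dock2*) to 918 times (650 to 1328, *Adgre1*) higher in the members than in the other nuclei. The set was therefore close to the same whichever gene was held out, and the held-out values still come from the same library.

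Across the genome, 447 of 5542 genes with enough counts were at least 4-fold higher in members (8.07%) and 202 were at least 4-fold lower (3.64%). Enough counts meant at least 20 UMIs in members or the same level in the others, and these folds were taken after adding 1 CPM to both sides. Genes low in the others had enough counts only through the members. Counts of higher genes within the lists below thus partly follow from this filter, while medians over whole lists do not. The median log2 ratio of all 5542 genes was -0.06. The ratios below are plain ratios of CPM, members over others, and genes between 4-fold higher and 4-fold lower are called within that range.

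Genes known from macrophages were mostly higher in members. Of 38 such genes, none of them in the rule, 29 had enough counts, 27 were at least 4-fold higher and 0 were lower, and the median log2 ratio over the 38 was 5.21. With 527 CPM over all 38 in the others, most of the 29 had enough counts only through the members. The 27 of 29 thus partly follows from the filter. Their summed level over the 38 was 6490 CPM (6259 to 6728) in members and 527 CPM in others, a ratio of 12.3 (11.9 to 12.8). The ratio was 6.47 when 5000 UMIs were required in place of 2000 and the 60 were ranked anew, and 8.01 against the 60 nuclei led by interstitial genes. Per member the summed level ran from 331 to 18845 CPM with a median of 8034, so even the lowest members differed widely from the highest.

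*Stab1*, a scavenger receptor of tissue macrophages, had 209 UMIs in 38 members and stood at 458 CPM against 2.14 (ratio 214, 174 to 264). *Hpgds*, a prostaglandin D synthase, had 225 UMIs in 49 members and was 183 times higher (151 to 222). *Cx3cr1*, the receptor for fractalkine, was found in 40 members and was 29.1 times higher (24.1 to 35.0). *P2ry12*, a purine receptor best known from microglia, was found in 41 members and was 82.2 times higher. After thinning, *Stab1*, *Hpgds*, *Cx3cr1* and *P2ry12* were found in 28, 35, 21 and 21 members and in 0, 1, 2 and 0 germ nuclei. *Tfec*, a transcription factor gene of macrophages and osteoclasts, had 93 UMIs in 38 members against 0.140 CPM in the other nuclei (ratio 1456, 777 to 3017). *Apoe*, which encodes a lipid carrier, was 30.8 times higher, *Maf*, a factor gene of resident macrophages, 5.22 times and *Ctss*, a cathepsin gene, 221 times.

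Some textbook markers were nearly missing. *Lyve1*, a hyaluronan receptor gene of vessel-associated macrophages, had 4 UMIs, all in 1 nucleus, and the haemoglobin scavenger gene *Cd163* had 3, also in 1 nucleus. *Timd4*, a receptor gene for phosphatidylserine, had 6 UMIs in 4 nuclei and *Folr2*, a folate receptor gene, 5 in 5. The lysosomal glycoprotein gene *Cd68* had 7 UMIs in 6 nuclei, which is few for a pan-macrophage marker. Reads of nuclei come largely from unspliced RNA, and what that does to short genes such as *Cd68* was not tested. *Mertk*, the engulfment receptor gene, was within the 4-fold range at 416 against 141 CPM (ratio 2.96, 2.55 to 3.42).

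Of the 29 phagocytosis and engulfment genes outside the rule, 23 had enough counts, 18 of them were at least 4-fold higher and 0 were lower. The median log2 ratio over the list was 3.63 and the summed level 10546 against 1532 CPM (ratio 6.88, 6.69 to 7.08). *Lyn*, a kinase gene of myeloid signaling, was the only gene of this report found in each of the 60 members, with 1 to 31 UMIs per nucleus, and was 35.5 times higher (31.8 to 39.5). *Arhgap15*, a Rac inhibitor gene, was 210 times higher with 896 UMIs in 50 members, and *Inpp5d*, which encodes the lipid phosphatase SHIP1, 171 times with 299 UMIs in 56. *Dock8* (59 members, ratio 18.5), *Myo1f*, a myosin gene of leukocytes (51, 289), and *Vav1*, an exchange factor gene of blood cells (36, 289), followed the same direction. After thinning, these were found in 47 (*Lyn*), 40 (*Arhgap15*), 44 (*Inpp5d*), 51 (*Dock8*), 35 (*Myo1f*) and 14 (*Vav1*) members and in 0 to 2 germ nuclei. The scavenger receptor gene *Msr1* was found in 17 members (ratio 877, 454 to 1856) and *Cd36* in 16 (8.17). Genes of bridging ligands of engulfment, of a partner receptor and of an exchange factor stayed within the 4-fold range. Ratios were 3.39 for *Pros1*, 3.47 for *Gas6*, 1.09 for *Axl* and 0.830 for *Dock1*.

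Complement and pattern recognition genes stood at 1750 against 86.1 CPM, a ratio of 20.3 (18.9 to 21.9). All 10 of the 10 tested among 27 measured were at least 4-fold higher, and 17 had too few counts to be read, 2 of them with no UMI in members (*Cd14* and *Tlr9*). With 86.1 CPM over all 27 genes in the others, genes had enough counts nearly always through the members. The 10 of 10 was thus close to set by the filter. The median log2 ratio over the 27 was 4.44. The subunits of the complement recognition protein C1q stood together, with *C1qa* in 25 members (44 UMIs, ratio 128, 84.9 to 193), *C1qb* in 26 (42, 161) and *C1qc* in 21 (29, 125). *Itgam*, which encodes the integrin subunit CD11b, was 386 times higher in 22 members, and *C3ar1*, an anaphylatoxin receptor gene, 494 times in 22. Sensors of nucleic acids and endotoxin were found too, with *Tlr7* at 612 times (31 members), *Tlr8* at 1033 times (355 to 4097, 15 members) and *Tlr4* at 110 times (31 members). The germ nuclei had no UMI of the 3 C1q genes, *Itgam*, *C3ar1*, *Tlr4*, *Tlr7* or *Tlr8*.

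In the lysosome and iron handling list, 14 of 23 tested genes among 27 were at least 4-fold higher, with a median log2 ratio of 2.46 over the list and a summed level of 4837 against 1054 CPM (ratio 4.59, 4.40 to 4.79). In the 60 nuclei led by erythroid genes this list stood at 3225 CPM. Among its protease genes, *Ctsc* was 71.1 times higher in 45 members, the asparaginyl endopeptidase gene *Lgmn* 20.4 times in 46 and *Ctsb* 10.3 times in 47. Genes of iron recycling were concentrated in fewer nuclei, with the iron exporter gene *Slc40a1* in 28 members (ratio 17.5, highest nucleus 54 of 211 UMIs), the haem oxygenase gene *Hmox1* in 17 (55.5) and the phagosomal metal transporter gene *Slc11a1* in 17 (92.5).

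Receptor genes formed the next group. Outside *Csf1r*, 26 cytokine and chemokine receptor genes were measured. With *Csf1r* left out, their summed level was 3771 against 548 CPM (ratio 6.88, 6.55 to 7.22), 16 of 21 tested were at least 4-fold higher, and the median log2 ratio over the list was 3.21. *Tnfrsf11a*, which encodes the osteoclast receptor RANK, was 416 times higher with 169 UMIs in 41 members. *Il6ra* was found in 36 members (84.1 times), *Csf3r*, the receptor gene for G-CSF, in 33 (172) and *Ccr1* in 20 (976, 405 to 2843). *Tgfbr2* was 6.03 times higher while *Tgfbr1* (2.91) and *Csf2ra* (3.53) stayed within the 4-fold range. *Ccr2*, the monocyte chemokine receptor gene, was 431 times higher (334 to 562) but was found in 18 members only, with up to 35 UMIs in 1 nucleus, in 16 of them after thinning and in 0 germ nuclei.

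Genes for what the members might send out were few. Of 29 cytokine and chemokine genes, 15 had no UMI in the 456689 of the members, among them *Il1b*, *Tnf*, *Il6*, *Il10* and *Ccl2*, which allows a level of up to 6.57 CPM for each (3 counts). Only 3 had enough counts. *Tgfb1* was at least 4-fold higher (87.6 against 11.6 CPM, ratio 7.58, 5.38 to 10.4), *Igf1*, a growth factor gene, was within the range at 372 against 106 CPM (3.52), and *Cxcl12*, a stromal chemokine gene, was within it on the lower side (39.4 against 141 CPM, 0.279). The summed ratio of the list was 2.15 (1.91 to 2.41) and its median log2 ratio over all 29 was 0.

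The ligands of macrophage receptors, read as the other side of the same signals, were 14 genes, of which 7 were tested, 1 was at least 4-fold higher in members (*Tgfb1*) and 0 lower, with a summed ratio of 1.35 (1.22 to 1.48). *Csf1* stood at 2.26 CPM and *Il34* at 1.95 CPM in the other nuclei, and the members held 1 UMI of *Csf1* and 0 of *Il34*. At 14 genes, antigen presentation was measured with few counts. *Cd86*, a costimulator gene, was 14.8 times higher, *B2m*, the light chain of class I, 6.79 times, and the class II genes *H2-Aa*, *H2-Ab1* and *Cd74* had 3, 1 and 7 UMIs. The summed ratio of that list was 8.66 (7.46 to 10.00).

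Of 32 transcription factor genes of myeloid cells, 17 had enough counts and 10 of them were at least 4-fold higher, with 0 lower. The median log2 ratio was 3.49 over the 17 and 1.98 over the 32, and the summed level was 11476 against 3690 CPM (ratio 3.11, 3.03 to 3.20). The list was also high in the 60 nuclei led by endothelial genes, at 7742 CPM, where the phagocytosis list stood at 4311 CPM. *Spi1* had 56 UMIs in 34 members, with 0 to 4 per nucleus, and stood at 123 CPM (92.6 to 159) against 0.140 (ratio 877, 454 to 1856). *Runx1*, a factor gene of blood formation, had 452 UMIs in 54 members, with a median of 7 per nucleus and a highest value of 37, and was 60.7 times higher (54.4 to 67.6). *Ikzf1*, a zinc finger factor gene of blood lineages, was 87.2 times higher in 53 members, *Fli1* 18.4 times in 55, *Mitf* 11.4 times in 46, *Mef2c* 6.97 times in 53 and the interferon regulatory factor gene *Irf8* 28.2 times in 31. *Spi1*, *Runx1*, *Ikzf1* and *Fli1* were found after thinning in 15, 42, 37 and 43 members and in 0 germ nuclei.

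Other factor genes were shared with the rest of the testis or not seen. *Zeb2* had the most UMIs of the list, 1657 in 57 members, yet was within the 4-fold range (2.59), as were *Bach1* (3.41), *Elf1* (2.16), *Etv6* (1.81) and *Tcf4* (1.19). *Runx2* was 21.5 times higher but had 55 of its 136 UMIs in 1 nucleus, and *Runx3* had 27 of 36 in 1 nucleus. *Cebpa* and *Cebpb*, the C/EBP genes of the list, had 1 and 4 UMIs. *Sall1*, *Spic*, *Gfi1b* and *Batf3* had none.

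**Figure D2:**
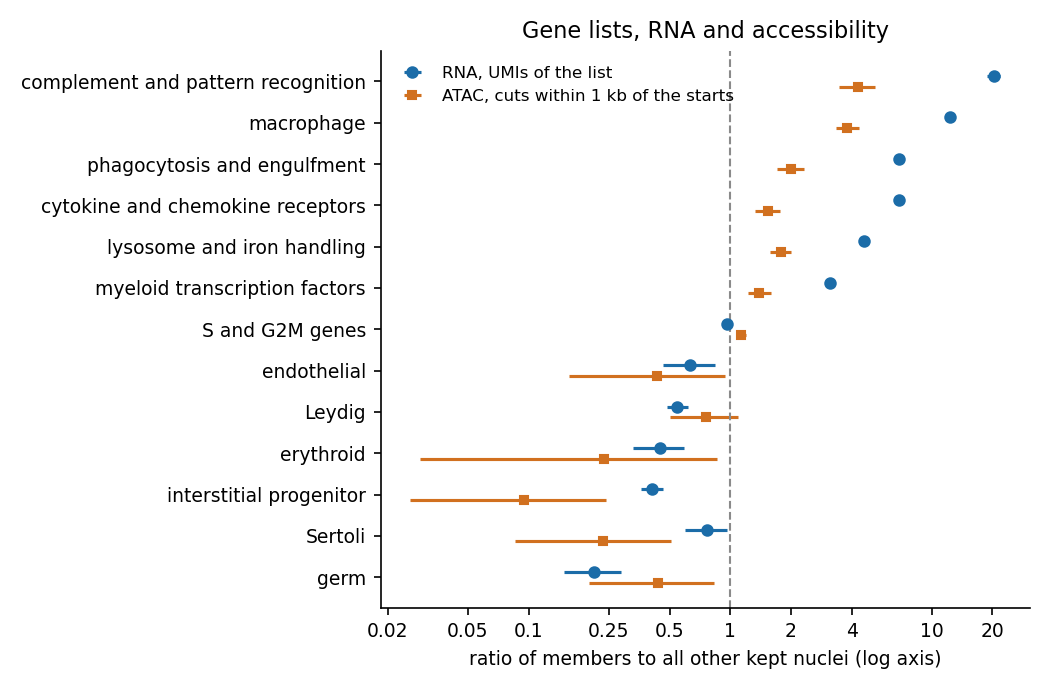
Ratio of the 60 members to the 7432 other kept nuclei on a log axis, for the summed UMIs of each gene list (circles) and for ATAC cuts within 1 kb of the gene starts (squares), with exact 95% intervals of counting error as bars, partly hidden by the symbols. Complement and macrophage lists stand at 20.3 and 12.3 for RNA and near 4 for cuts, S and G2M genes near 1, and the lists of other testis cells below 1.

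A further set was the 20 genes with the largest ratio after 1 CPM was added to both sides, with at least 50 UMIs in at least 12 members. That order differs from the order of the plain ratios given here, in which genes such as *Spi1* (877) would stand higher. The set held *Aoah*, a hydrolase gene that inactivates endotoxin (587 times, 47 members), *Lcp2*, an adaptor gene of immune receptors (820, 42 members), the Fc receptor-like gene *Fcrls* (605), *Ifi207*, an interferon-induced gene (606), the tetraspan genes *Ms4a6b* (631), *Ms4a6c* (394) and *Ms4a7* (522), *Cd84* (334), *Cd180* (326), the thromboxane synthase gene *Tbxas1* (193) and genes already given. *Ms4a6b* and *Ms4a6c* are close paralogs on chromosome 19 and reads could be split between them. *F630028O10Rik* (530) and *Gm26740* (244) are annotated as antisense RNAs. *Tfec*, *Aoah*, *Ccr2*, *Tnfrsf11a*, *Arhgap15*, *Myo1f*, *Stab1*, *Inpp5d* and *Hpgds* also met this rule.

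The genes with the smallest ratios, among those at 100 CPM or more in the other nuclei, were 10 in number. *Erbb4*, a neuregulin receptor gene, had 13 UMIs in members (28.5 against 686 CPM, ratio 0.0415, 0.0221 to 0.0710). *Nrxn3*, a neurexin gene, stood at 166 against 1294 CPM (0.129) and 35 of its 76 UMIs lay in 1 nucleus. *Sox6* (0.0797), with 11 of 14 UMIs in 1 nucleus, *Cpeb1* (0.106), *Kcnc2* (0.0212) and *Mageb18* (0.020), with 6, 2 and 2 UMIs, were nearly missing. *Gabrb1*, *Ctnna3*, *Fign* and *Frmd5*, at ratios of 0.0610 to 0.129, completed the set.

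Genes of the S and G2M phases of the cell cycle stood near their level in the other nuclei. Of 97 such genes, 48 were tested, 0 were at least 4-fold higher and 0 lower, and the summed level was 6751 against 7010 CPM (ratio 0.963, 0.929 to 0.998). With the top 80 nuclei in place of 60 the ratio was 1.09, on the other side of 1. Members differed widely, from 712 to 20486 CPM with a median of 2949, and 1 nucleus held 8.76% of the UMIs of these genes.

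Defining genes of other blood cells were few in number of UMIs, and some of the lists leaned on single nuclei. Of 12 T and NK cell genes, 9 had no UMI and the list held 20 UMIs, and the 8 megakaryocyte genes held 2. The mast cell list held 78 UMIs, of which 60 (76.9%) lay in the nucleus at rank 42, which had 33 of *Kit* and 20 of the mast cell protease gene *Cpa3*. The B cell list held 73 UMIs in 10 members, 36 of them in rank 53, which had 31 of *Ebf1* and 2 each of the B lineage genes *Pax5* and *Cd79a*, and which also held 3 UMIs of the lymphoid receptor gene *Il7r*. In the other kept nuclei *Ebf1* and *Kit* stood at 236 and 44.3 CPM. *Il7r*, a gene of the T and NK list, also had 4 and 8 UMIs in ranks 54 and 56. These nuclei held 12 and 6 UMIs of *Flt3*, a gene of the dendritic list. The dendritic list had 24 of 117 UMIs in rank 56, with a summed ratio of 1.23 (1.01 to 1.47). The neutrophil list held 91 UMIs in 34 members (ratio 31.4, 24.8 to 39.3), of which *Csf3r*, shared with monocytes, made up 59 and the granule enzyme gene *Mpo* 16, with 8 each in ranks 44 and 48. The monocyte list had a ratio of 2.01 (1.81 to 2.22), and *Ccr2* made up 213 of its 368 UMIs in members.

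Lists of the other cells of the testis stood below their level in the other nuclei, which include those cells themselves. The ratio was 0.211 for germ cells (29 of 40 UMIs in rank 57), 0.410 for interstitial progenitors (68 of 246 UMIs in rank 60, the nucleus with 37946 UMIs), 0.447 for erythroid cells, 0.547 for Leydig cells (50 and 35 of 275 UMIs in ranks 50 and 38), 0.634 for endothelial cells (20 of 47 UMIs in rank 54) and 0.764 for Sertoli cells. Defining interstitial genes were thus present at a low level, in at least 3 UMIs in 15 members, and in their own reference set of 60 nuclei the list stood at 5749 CPM against 539 in members. The Leydig list, at 602 CPM in members, stood at 285 to 587 CPM in the reference sets of the other cell types. The Sertoli list stood at 162 CPM in members. It was 57.9 to 126 CPM in the endothelial, erythroid, Leydig and interstitial sets and 250 in the germ set. Members were thus not below nuclei of other types by these lists. In all, 17 members had at least 5 UMIs of the mast, B, neutrophil, dendritic, T and NK or germ list. Without these 17, the macrophage ratio was 17.2, the interstitial ratio 0.214 and the ratio of S and G2M genes 0.850. The interstitial ratio was 0.217 in the first 40 members.

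RNA and chromatin were read along the rank. The macrophage list stood at 11262 CPM in ranks 1 to 20, at 7871 in ranks 21 to 40 and at 3171 in ranks 41 to 60. It was 1451 CPM in ranks 61 to 80, 477 in ranks 81 to 100, 490 in the 100 nuclei after rank 100 and 523 in all others. Nuclei just outside the set therefore still carried more of these genes than the rest, and ranks 81 and beyond did not. Cuts at peaks within 1 kb of the starts of the same genes, which the rank did not use, were 1043 per 1000000 (748 to 1414) in ranks 1 to 20, 851 in ranks 21 to 40, 268 (159 to 423) in ranks 41 to 60 and 250 in the nuclei past rank 200. The last 20 members were thus within counting error of the other nuclei by this measure.

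The embryos were labelled male, and blood cells of the mother would carry *Xist* and no Y chromosome. At least 1 UMI of the 4 Y-linked genes measured was found in 58 of the 60 members (96.7%), against 97.3% of the other nuclei. Free RNA was not removed, and its part in these UMIs was not tested. No fragment of the Y chromosome was found in 24 of the 60 members and in 2668 of the 7432 other nuclei. The inactive X gene *Xist* had 1 UMI in 1 member. No member lacked Y-linked UMIs and held 2 or more of *Xist*.

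Chromatin gave a readout independent of the rule. Over the whole fragment list on chromosomes 1 to 19, X and Y, the members held 505340 cuts and the other nuclei 80623938. Quality was alike, with 59.4% of fragments shorter than the DNA of 1 nucleosome against 57.4%, and cuts at gene starts 23.0 times as dense as at the flanks against 23.8. Of 5725 coding genes with at least 10 cuts of members within 1 kb of their start, or the same level in the others, 73 (1.28%) were at least 4-fold higher in members, and the median log2 ratio was 0.38. Over gene bodies with 1 kb on both sides, 1104 of 12802 genes (8.62%) were at least 2-fold higher, with a median of 0.14. Starts and bodies with few cuts in the others had enough cuts only through the members. Counts of higher ones by list, given below, partly follow from that.

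At the starts of the macrophage genes the members held 238 cuts, 471 per 1000000 (413 to 535) against 124, a ratio of 3.81 (3.34 to 4.33). Of 12 of these genes with enough cuts, 7 were at least 4-fold higher. The starts of the 8 genes of the rule held 42 cuts, 83.1 per 1000000 against 8.14 (ratio 10.2, 7.29 to 13.96), and 2 of 2 with enough cuts were higher. The 8.14 of all 8 starts together is under the level of 10 cuts of members, so a start could pass only through the members. The 2 of 2 was thus close to set by the filter, and the 2 complement starts given next also passed through the members. Within 500 bp of the starts the ratios were 15.8 (10.6 to 22.7) for the rule genes and 4.33 (3.70 to 5.04) for the macrophage list. Complement genes stood at 4.28 (3.48 to 5.21) with 2 of 2 higher, phagocytosis genes at 2.003 (1 of 8), lysosome and iron genes at 1.78 (2 of 17), receptor genes at 1.54 (1 of 9) and transcription factor genes at 1.40 (1.22 to 1.59, 1 of 11). Starts of S and G2M genes were 1.13 times as accessible (1.07 to 1.20), with 0 of 65 higher. Over starts with enough cuts, the median log2 ratio was 0.26 for S and G2M genes, 0.72 for transcription factor genes and 0.78 for receptor genes. It was 0.38 over all coding starts tested, so S and G2M starts lay below that background. Starts of interstitial genes stood at 0.0948 (4 cuts), of Sertoli genes at 0.233 (6 cuts), of germ genes at 0.439 (9 cuts) and of endothelial genes at 0.431 (6 cuts), while Leydig genes stood at 0.757 with an interval that held 1 (0.503 to 1.10, 28 cuts).

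**Figure D3:**
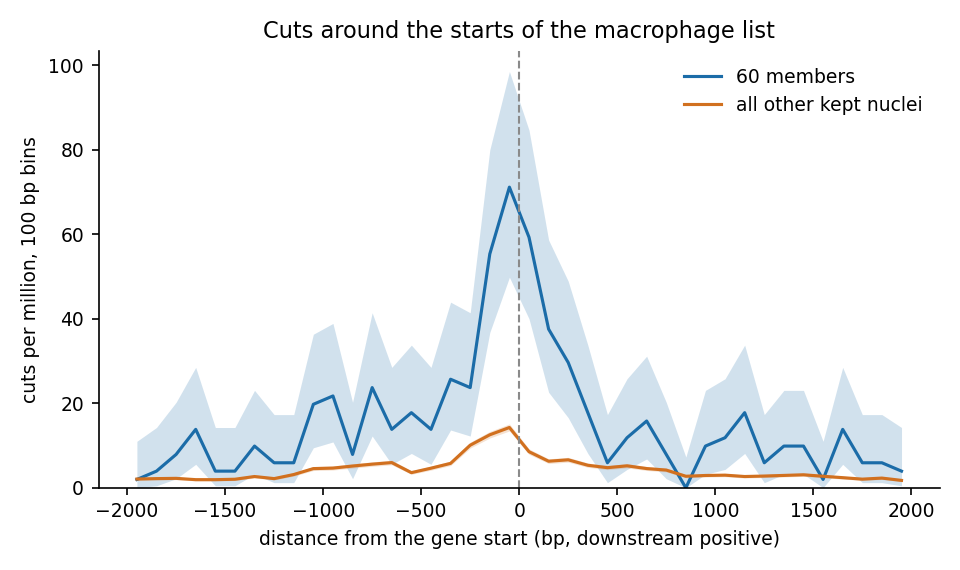
ATAC cuts per 1000000 in bins of 100 bp against the distance (bp) from the start of the 38 macrophage genes, for the 60 members and the other kept nuclei, with exact 95% intervals of counting error shaded. The members rise above 70 cuts per 1000000 just upstream of the start, where the other nuclei stay under 20.

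Single starts rested on few cuts. *Tyrobp*, which encodes the signaling adaptor DAP12, had 19 cuts from 9 members at its start (37.6 against 0.682 per 1000000, ratio 55.1, 30.9 to 94.3). *C1qa* had 12 cuts from 6 members (33.6), *C1qc* 10 from 5 (16) and *Pf4*, a chemokine gene, 15 from 7 (23.5). Of the rule genes, *Adgre1* (11 cuts from 6 members, ratio 32.5, 15.3 to 62.9) and *Mrc1* (14 from 6, 16.4, 8.75 to 28.5) had enough cuts, while *Dock2* and *Fyb* had 0 cuts within 1 kb of the start. Those genes still differed over their bodies, with 120 cuts from 37 members at *Dock2* (2.41, 2.0 to 2.89) and 76 from 26 at *Fyb* (3.0, 2.36 to 3.77). *Ptprc* had 52 cuts from 21 members over its body (4.27, 3.18 to 5.63), *Csf1r* 44 from 19 (4.42) and *Ikzf1* 62 from 24 (4.87). *Runx1* had 176 cuts from 33 members (3.07, 2.63 to 3.57) and *Spi1* 44 from 13 (3.63, 2.63 to 4.89). *Mertk*, whose RNA was within the 4-fold range, stood at 0.784 at its start (0.376 to 1.45). Over bodies, 23 of 29 macrophage genes tested were at least 2-fold higher, 12 of 15 complement genes, 14 of 27 phagocytosis genes and 10 of 28 transcription factor genes.

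The deposited peaks showed less of this. Of 612 peaks with enough cuts, 7 (1.14%) were at least 4-fold higher in members, and of 781 promoters covered by peaks 5 (0.64%). The peak with the largest ratio, at chr11:93821267-93822177 in mm10, had 20 cuts from 10 members (129 against 1.97 per 1000000, ratio 65.5, 37.2 to 111). It is intergenic, 63589 bp from the nearest coding start, that of *Utp18*. The next were at the promoter of the cytoskeletal gene *Epb41* (8.58), in an intron of *Rhog*, a small GTPase gene (6.50), and at promoters of *Dennd4b* (4.57), *Srbd1* (4.55), *Gars* (4.24), *Ago3* (4.20), *Cep128* (4.0), *Fam3c* (3.92) and *Ctsl* (3.81). Peaks within 1 kb of the starts of the macrophage list together held 2.58 times as many cuts per 1000000 (2.10 to 3.14), and 1.70 times with a mitochondrial limit of 5% in place of 10%. The median log2 ratio over all peaks tested was itself 0.96, and over all promoters tested 0.91. Of the rule genes, *Csf1r* alone had a deposited peak at its promoter, with 0 cuts in members against 233 in the others (8.21 per 1000000, ratio up to 2.93). Peaks over the bodies of *Ptprc*, *Adgre1* and *Ly86* held 0 cuts of members, and those of *Mrc1* 2 (ratio 0.557, 0.0673 to 2.02). Deposited peaks were called on all nuclei together, and the members are 60 of them.

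Bins of 500 bp were therefore counted over the whole genome. Cuts from at least 5 members fell in 4026 bins, and 233 of them (5.79%) were at least 8-fold higher in members than in the other nuclei, whereas 2546 were within 2-fold and are called shared. The cuts of the members chose these 233 bins, so their ratios are a description, with a median of 35.5 and a lowest value of 8.10. Only 38.6% of the 233 (32.3 to 45.2) lay in a deposited peak, against 99.5% of the shared bins. They lay away from promoters, with 12% within 1 kb of a start against 87.2% of shared bins, 30.5% in introns against 1.26%, and 38.6% between genes against 4.16%. The coding start nearest to the bin belonged to a gene at least 4-fold higher in RNA for 42 bins (18.0%, 13.3 to 23.6), against 103 of all 4026 bins (2.56%) and 15 shared bins (0.589%, 0.330 to 0.970). Shared bins lay mostly at promoters and were defined by a like level in members and others, so this contrast partly follows from the choice. The 42 bins lay nearest to 40 genes, among them *Runx1*, *Csf1r*, *Lgmn*, *Il6ra*, *Ctsc*, *Ncf1*, *Cd44*, *Pik3cd* and *Tnfrsf1b*. Unlike the RNA count over the genome above, this count did not leave out the genes of the rule. *Csf1r* is such a gene, so the share near higher genes draws in part on RNA that chose the members.

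The same bins were read in nuclei past the members, which are among the others that set the 8-fold threshold. Ranks 61 to 80 held 502 cuts per 1000000 in these bins (427 to 586), 2.99 times the 168 of all other kept nuclei. Ranks 81 to 100 held 276 (208 to 359), 1.65 times that level (1.24 to 2.14), and the 100 nuclei after rank 100 held 176 (149 to 206), within counting error of it. Among members, ranks 1 to 20 and 21 to 40 held 5732 and 5845 cuts per 1000000, ranks 41 to 60 held 2605, and single members ranged from 444 to 16667. Each of the 60 members had at least 1 cut there.

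Short sequences known as binding motifs were searched in the bins on both strands, as letters only. The letters GAGGAAGT, read by PU.1 and other ETS factors, were in 46 of the 233 bins (19.7%, 14.8 to 25.4), against 3.46% of shared bins, 3.84% of the centers of all 109183 deposited peaks and 3.02% of bins taken evenly from the genome. Outside promoters the shares were 18.5% of 205 bins and 4.0% of 325 shared bins. Among the 143 bins outside deposited peaks, 17.5% (11.6 to 24.7) held the letters. The C/EBP letters TTGCNNAA were in 25.3% (19.9 to 31.4) against 10.3% of shared bins, yet 19.5% of peak centers and 22.2% of genome bins, and the AP-1 letters TGANTCA in 18.5% (13.7 to 24.04) against 5.15%, 14% and 14.3%. For C/EBP and AP-1 the share in peak centers or in genome bins lay inside the interval of the bins open in members. Outside promoters the AP-1 letters were in 43 of 205 bins (20.98%, 15.6 to 27.2), an interval that lies above both of those shares. Peak centers and genome bins still include promoters, and a share outside promoters was not counted for them, so the sets are unlike. Shared bins outside promoters, a like set, stood at 6.46%. RUNX letters (TGTGGTTT) were in 5.58% (3.004 to 9.35), against 1.18% of shared bins, 3.52% of peak centers and 4.30% of genome bins, the last 2 inside the interval. GATA letters (AGATAAG) were in 7.30% (4.31 to 11.4) against 1.77%, 8.20% and 7.32%, again with the last 2 inside, and CTCF letters (AGGGGGC) in 7.73% (4.64 to 11.9) against 29.1%, 12.6% and 3.83%. NR5A1 letters (TCAAGGTCA) were in 0 of 233 bins, which allows up to 1.29% (3 counts), against 3.55% of peak centers, 1.04% of genome bins and 0.55% of shared bins. Base composition differs between these sets, with 50.4% G and C in the open bins, 64.9% in shared bins, 50.3% in peak centers and 41.7% in genome bins. The PU.1 share thus stood apart from peak centers of the same base composition as well.

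**Figure D4:**
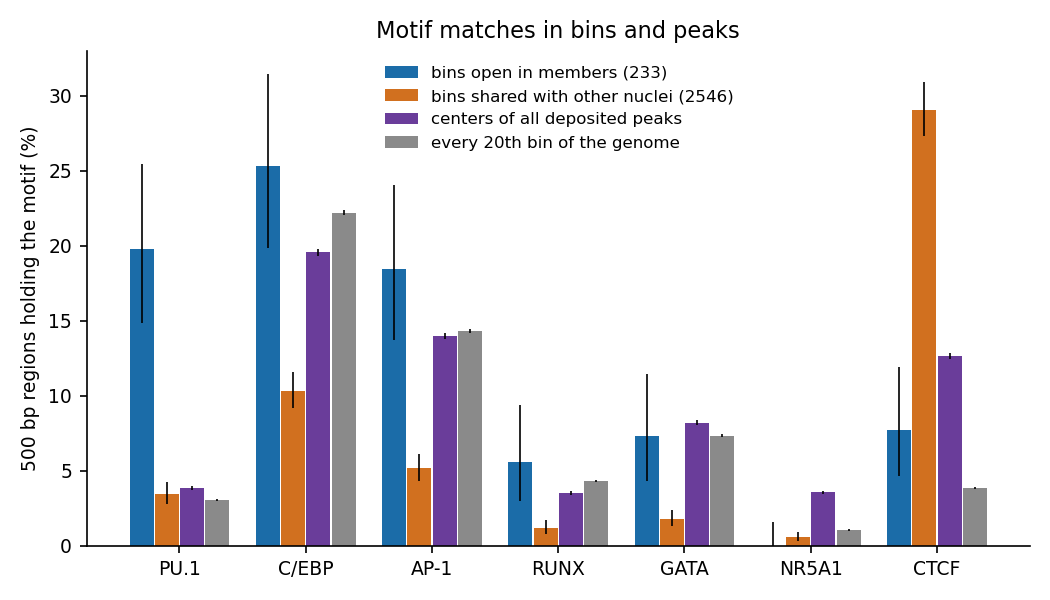
Share (%) of 500 bp regions that hold each motif's letters on either strand, for the 233 bins open in members, the 2546 shared bins, the centers of all deposited peaks and every 20th bin of the genome, with exact 95% intervals as bars. The PU.1 bar of the open bins stands at 19.7% and the other 3 PU.1 bars under 4%.

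The sequences below show such letters in place. They are bins open in members, nearest to a gene at least 4-fold higher in RNA, taken in order of the number of members with a cut, with 4 for PU.1, 1 for C/EBP and 1 for AP-1. Each is printed on the plus strand of GRCm38 (mm10), with the motif letters, or their reverse complement, in capitals at the center.
PU.1 letters near Grk2, chr19:4300296-4300415: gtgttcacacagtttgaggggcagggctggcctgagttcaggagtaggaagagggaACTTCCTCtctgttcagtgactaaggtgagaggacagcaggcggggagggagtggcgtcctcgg
PU.1 letters near Abcc3, chr11:94386345-94386464: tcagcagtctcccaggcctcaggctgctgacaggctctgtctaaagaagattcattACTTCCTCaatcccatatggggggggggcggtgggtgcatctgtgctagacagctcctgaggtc
PU.1 letters near Nlrp1b, chr11:71251471-71251590: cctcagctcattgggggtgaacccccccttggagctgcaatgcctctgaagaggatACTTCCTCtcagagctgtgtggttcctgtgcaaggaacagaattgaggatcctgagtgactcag
PU.1 letters near Crybg3, chr16:59604152-59604271: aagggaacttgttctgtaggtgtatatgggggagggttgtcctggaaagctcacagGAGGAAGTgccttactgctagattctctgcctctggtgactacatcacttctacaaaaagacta
C/EBP letters near Abca9, chr11:110166003-110166122: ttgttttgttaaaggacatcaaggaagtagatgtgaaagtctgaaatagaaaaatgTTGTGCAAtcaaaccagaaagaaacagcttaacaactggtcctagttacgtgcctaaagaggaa
AP-1 letters near Ncoa3, chr2:165982983-165983101: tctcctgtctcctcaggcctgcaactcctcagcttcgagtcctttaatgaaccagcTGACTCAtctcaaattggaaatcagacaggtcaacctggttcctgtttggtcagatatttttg

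Distances and annotations here are those of the whole 500 bp bin, not of the letters. The first lies in an intron of *Grk2*, a receptor kinase gene, in a bin with 12 cuts from 7 members against 27 cuts in all other nuclei (ratio 70.9, 32.7 to 145). The second lies in an intron of *Abcc3*, a transporter gene, with 14 cuts from 6 members (10.3, 5.53 to 17.6), and the RNA of *Abcc3* was 104 times higher. The third is intergenic, 20768 bp from the start of the inflammasome gene *Nlrp1b*, with 10 cuts from 5 members against 8 in all others (199, 70.9 to 581), and *Nlrp1b* RNA had 61 UMIs in 31 members against 0.102 CPM in the others. The region near *Crybg3* is also intergenic, 3022 bp from its start, with 10 cuts from 5 members (145) and an RNA ratio of 4.69. The bin with the C/EBP letters overlaps an exon of *Abca9*, a lipid transporter gene, and lies 1696 bp from its start, with 9 cuts from 6 members against 7 in all others (205, 68.0 to 648) and an RNA ratio of 74.0. The bin with the AP-1 letters lies 9136 bp from the start of *Ncoa3*, a coactivator gene, with 13 cuts from 7 members (24.99, 12.8 to 45.1) and an RNA ratio of 4.61.

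Within the members, *Mrc1* and *Ccr2* were seldom found together. *Mrc1* without *Ccr2* was found in 34 members (56.7%, 43.2 to 69.4), *Ccr2* without *Mrc1* in 14 (23.3%, 13.4 to 36.0), both in 4 and neither in 8. This split was chosen after the values were seen, and *Mrc1* is a gene of the rule. Median depth was 5026 UMIs in the 34 and 6328.5 in the 14, so absence of *Mrc1* in the 14 did not go with lower depth. The comparison is between nuclei of 1 library and has no replicate.

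**Figure D5:**
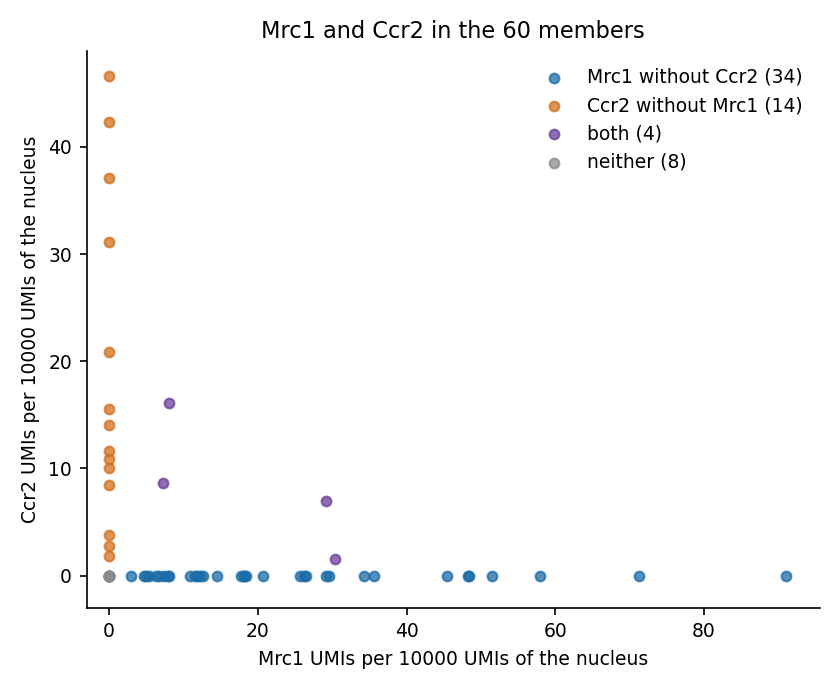
*Mrc1* against *Ccr2*, both in UMIs per 10000 UMIs of the nucleus, for the 60 members. The 34 nuclei with *Mrc1* alone lie on the horizontal axis, the 14 with *Ccr2* alone on the vertical axis, 4 hold both and 8 neither.

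Nuclei with *Mrc1* alone held more RNA of the macrophage list (1.54 times, 1.40 to 1.69) and of the lysosome and iron list (1.39 times, 1.25 to 1.55). The phagocytosis and engulfment list, its 30 genes including *Dock2*, went the other way, at 10296 against 12914 CPM (0.797 times, 0.747 to 0.851). Whether single genes of this list set its direction was not tested. Summed levels weigh deep nuclei more, and ranks 46, 57 and 60 held 17044, 23049 and 37946 of the 257004 UMIs of the 34. How far these nuclei set the levels of the lists was not tested. Single genes with higher levels in the *Mrc1* nuclei follow. *Stab1* had 183 UMIs in 31 of the 34 against 1 in the 14 (ratio 79.5, 14.1 to 3157), *Slc40a1* 179 in 23 against 2 (38.9, 10.6 to 324) and *Hmox1* 80 in 14 against 1 (34.8, 6.06 to 1390). *Dab2*, an endocytic adaptor gene, had 322 UMIs in 32 against 5 (28.0, 11.9 to 86.8). *Mertk* stood at 599 against 71.6 CPM (8.36, 4.14 to 19.7), *Maf* at 914 against 161 (5.67, 3.51 to 9.74), *Igf1* at 490 against 53.7 (9.12, 4.08 to 25.3) and *Cx3cr1* at 358 against 125 (2.86, 1.62 to 5.43). *C1qa* had 38 UMIs in 21 nuclei against 1. *Plxna4*, a semaphorin co-receptor gene, had 75 UMIs in 21 nuclei and *Cd36* 43 in 12, against 0 in the 14.

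Nuclei with *Ccr2* alone held more RNA of the monocyte list, its 7 genes without *Ccr2*, at 609 against 292 CPM (2.09 times, 1.48 to 2.94). The list is not particular to monocytes here, at 402 CPM in the other kept nuclei and 889 in the interstitial reference set, with *Ccr2* counted. Single nuclei weighed on both sides. Rank 60 held 38 of the 75 UMIs of the *Mrc1* nuclei. Ranks 32, 34 and 43 held 37, 20 and 30 of the whole list, of which 24, 4 and 16 were *Ccr2*. Single genes with higher levels in the *Ccr2* nuclei follow. *Emb*, an adhesion protein gene, had 87 UMIs in 14 of the 14 against 5 in the 34 (ratio 40.05, 16.5 to 126). *Atp8b4*, a flippase gene, had 76 in 12 against 1 (175, 30.5 to 6999), *Gpr141*, an orphan receptor gene, 69 in 11 against 0, and *Klra2* 29 in 7 against 0. *Lyz2*, the lysozyme gene, stood at 940 against 70.0 CPM (13.4, 8.09 to 23.5), *Plac8* had 23 UMIs in 8 against 1, and *Runx2* 51 in 6 against 6 (19.6, 8.40 to 55.8). S and G2M genes stood at 9663 against 4467 CPM (2.16, 1.99 to 2.35), with *Mki67* at 555 against 152 CPM (3.66, 2.41 to 5.61) and *Top2a* at 475 against 89.5 (5.30, 3.19 to 9.07). Ranks 32 and 43, the 2 of the 14 with at least 5 UMIs of the B cell list, held 39 of the 62 *Mki67* UMIs. Without them *Mki67* was 1.93 times higher (1.10 to 3.31), *Top2a* 5.40 times and the S and G2M list 2.04 times (1.86 to 2.24). The neutrophil list was 3.50 times higher (2.01 to 6.21) on 35 and 23 UMIs.

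Factor genes of the lineage were found in both sets, some at unlike levels. The summed level of the transcription factor list was 1.002 times (0.937 to 1.07) and *Spi1* 0.600 times (0.331 to 1.11), *Runx1* 0.900 times (0.715 to 1.14) and *Irf8* 0.815 times (0.430 to 1.60) in *Mrc1* nuclei over *Ccr2* nuclei. *Mitf* (3.81, 2.42 to 6.30), *Fli1* (1.76, 1.28 to 2.45) and *Mef2c* (1.46, 1.20 to 1.79) were higher in *Mrc1* nuclei, as was *Maf*, whereas *Runx2* was higher in *Ccr2* nuclei.

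Chromatin had no part in the split, and cuts over the bodies of some genes differed with it. Over their bodies, *Mrc1* had 34 cuts in the *Mrc1* nuclei and 2 in the *Ccr2* nuclei (ratio 6.26, 1.60 to 53.7), *Csf1r* 38 and 2 (6.99, 1.81 to 59.8), *Adgre1* 26 and 2 (4.78, 1.20 to 41.6) and *Mertk* 70 and 12 (2.15, 1.15 to 4.35). *Runx1* went the other way, with 84 and 54 cuts (0.572, 0.402 to 0.821), as did *Ccr2* with 2 and 6 (0.123, 0.0121 to 0.686). At *Spi1* the interval held 1 (20 and 14 cuts, 0.526, 0.253 to 1.13). Cuts from pairs make these intervals too narrow, and every count here is even. Whether the intervals would leave out 1 with fragments in place of cuts was not tested. Intervals at *Mrc1*, *Csf1r*, *Adgre1* and *Ccr2* rest on 2 cuts on the lower side, which can be 1 fragment. How many genes of the lists differed in this way is not given.

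The limits on barcodes touched immune nuclei more than others. Of 99 deposited barcodes at or over the share of the last member, 39 were outside the limits (39.4%, 29.7 to 49.7), against 23.8% of all 9833 barcodes. Of the 39, 20 had 10% or more mitochondrial UMIs, 19 had 500 or fewer cuts at peaks, 3 of them both, and 4 had under 2000 UMIs. With all 99 in the set, the macrophage ratio was 12.4, against 12.3 for the 60.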

How the data were processed

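Reads were aligned and counted by the authors with Cell Ranger ARC 2.0.1 (defaults, mm10), and raw counts were deposited, with no normalization, for 9833 barcodes: UMIs for 32285 genes and transposase cuts for 109215 peaks, beside the list of unique fragments. Reads in introns enter the counts of nuclei. Doublet and ambient RNA removal by the authors is not in these deposited counts and none was done here.

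Members, gene lists and comparisons were chosen with earlier results of these data known. The bins, the motifs and the *Mrc1* and *Ccr2* split were chosen after values had been seen. Counts were summed over sets of nuclei and divided by the set's total. Reference sets were the 60 nuclei outside the members with the largest share of each list. Levels have exact Poisson intervals, ratios exact conditional binomial intervals and shares exact Clopper-Pearson intervals. Nuclei of 1 library are not replicates, so no p-value was computed. Named genes were the 8 rule genes, genes of the lists, the 20 genes with the largest ratio after adding 1 CPM (at least 50 UMIs in at least 12 members), the 10 with the smallest (at least 100 CPM in others) and the 10 peaks with the largest (at least 20 cuts from at least 8 members). *Plxna4*, *Dab2*, *Emb*, *Atp8b4*, *Gpr141*, *Klra2*, the genes of bins and those of the printed sequences fell outside that rule and were named after their values were seen.

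Scripts ran in Python 3.11.15 with numpy 2.4.6, scipy 1.17.1, pandas 2.3.3 and scanpy 1.11.5 (Scrublet), and took cell cycle genes from Seurat 5.3.0 in R 4.3.3. Ratios and intervals were tested on simulated data. Sequences and gene positions come from the GRCm38 genome and annotation supplied for this work.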

Additional observations from a re-analysis of the deposited data

Results flagged for a closer look

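Barcodes outside the limits on quality also carried the signal of the immune nuclei. The 39 of them at or over the marker share of the last member held 1185 cuts per 1000000 (1014 to 1377, 171 cuts from 26 of the 39) in the 233 bins open in members, 7.07 times the 168 of the other kept nuclei and below the 2605 of the last 20 members. These barcodes had no part in choosing the members or the bins. The bins were chosen for cuts of members, the last 20 among them, and for few cuts in the other kept nuclei. The 1185, 2605 and 168 are thus not like values.

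*Ccr2* stood at 1230 CPM (1084 to 1390) in the same 39 barcodes and was found in 24 of them (61.5%, 44.6 to 76.6). In the members it stood at 466 CPM in 18 of 60 (30%, 18.8 to 43.2) and in the other kept nuclei at 1.08 CPM. The ratio of the 39 to the members was 2.64 (2.19 to 3.18) for *Ccr2*, 2.28 (1.97 to 2.64) for the monocyte list, 3.21 (2.44 to 4.23) for the neutrophil list, 1.30 (1.21 to 1.39) for the lysosome and iron list, 1.15 (1.08 to 1.22) for S and G2M genes and 1.10 (1.03 to 1.17) for the macrophage list, while *Mrc1* stood at 509 CPM in 14 of the 39. The monocyte list holds *Ccr2* itself. The 39 differ from members in mitochondrial share, in cuts and in depth (median 4696 against 5826 UMIs), and the part of these in the *Ccr2* difference was not tested.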

How the results depend on the processing

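No paired analysis was possible because each assay had 1 library. Of 79 values under alternatives over 8 results, 46 stayed within the range set for the result and 33 moved. A change of direction was scored only for results themselves at least 4-fold from no difference. Those were the macrophage RNA ratio and the transcription factor median, and neither changed direction. That range was the counting interval, or 1.5 times for the count of genes. For the median of the transcription factors it was the quartiles of the genes (1.10 to 4.59), a spread between genes and not a counting error. The cause of the moves was not tested.

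The macrophage RNA ratio (12.3) was 17.7 for the top 40, 8.34 for the top 80, 6.47 at 5000 or more UMIs, 9.05 under 5% mitochondrial, 11.4 to 12.9 with 1 marker left out, 11.4 on a log2 rank, 8.01 against the interstitial set and 17.2 without 17 members holding 5 UMIs of another lineage's list. Its promoter peak ratio (2.58) was 3.74, 1.94, 1.72 and 1.70 for the first 4 of these and 3.43 for the last. Cuts at its starts (3.81) gave 5.09 for the top 40, 3.004 for the top 80 and 4.33 within 500 bp.

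The S and G2M ratio (0.963) was 1.09 for the top 80, 1.10 at 5000 UMIs, 1.06 under 5% mitochondrial, 1.09 without high Scrublet scores, up to 1.11 with 1 marker left out, 1.05 against the interstitial set, 1.03 with all 99 barcodes and 0.850 without the 17, so it lay on both sides of 1. The interstitial ratio (0.410) was 0.217 for the top 40, 0.499 for the top 80, 0.570 at 5000 UMIs, down to 0.292 with 1 marker left out, 0.485 on a log2 rank, 0.0937 against the interstitial set and 0.214 without the 17. Genes at least 4-fold higher numbered 447, and 1055 with no filter on low counts. The median log2 ratio of the transcription factors (3.49) ran from 2.41 to 4.27, inside the wide quartiles of its genes. The PU.1 share (16.02% to 19.8%) did not leave its counting interval. The gene starts named for their ratio rest on 10 to 19 cuts each.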
